A study of Rattus norvegicus with 14 samples.

Results

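The genes described here are the interferon-response genes of cultured rat aortic smooth muscle cells, a set of 37 symbols chosen by name from known interferon-stimulated genes with their measured differences under the growth factor PDGF and the inhibitor JQ1 in view. Of the 37 symbols, 36 had a row among the 17312 genes measured, and Xaf1 is the exception. The members were thus selected on their levels in all 5 groups, and the differences given for them below are a description and no independent evidence. Nothing is read from how many of them passed the threshold.

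Rat aortic smooth muscle cells (RASMC) are the contractile cells of the vessel wall, here purchased as a cultured stock, and their polyadenylated RNA was sequenced in 14 libraries. All cells were held for 24 h without serum. The unstimulated group (0 h, n = 2) received nothing further, and the PDGF groups received platelet-derived growth factor, a mitogen of smooth muscle, at 925 ng/ml for 2 h (n = 3) or 24 h (n = 3). The JQ1 plus PDGF groups were given JQ1, a small molecule that displaces BET bromodomain proteins from acetylated histones, at 500 nM for 3 h and then the same PDGF for 2 h (n = 3) or 24 h (n = 3). JQ1 without PDGF and unstimulated cells at 2 h or 24 h were not analysed here, so PDGF and time in culture enter the comparisons with 0 h together. The series title places the comparisons within the change of smooth muscle cell state under PDGF. The labels do not say whether replicates were separate cultures, so the tests measure the spread between these libraries only, which may be technical.

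Interferons are secreted proteins that signal through cell-surface receptors, the kinases JAK1, JAK2 and TYK2 and transcription factors of the STAT and IRF families. A complex that holds STAT2 and IRF9 binds the interferon-stimulated response element (ISRE) in promoters, and a second kind of promoter element is the gamma-activated sequence (GAS). The induced genes sense foreign RNA, block viral replication and feed peptides to MHC class I. Several of them are kept at a low level in cells that meet no interferon, and some are also known targets of NF-kappaB or of IRF factors alone.

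The promoter sequences of the members are shown first because the response element that names the family can be read in them. RefSeq (GRCr8) promoters of 250 bases before to 50 bases after the annotated start were available for 30 of the 37 symbols, and Ddx58, Dhx58, Ifit1, Ifit2, Mx2, Isg15 and Usp18 had none to match. The ISRE core, GAAA followed by any 2 bases and GAAA again, searched on both strands, was present in 21 of the 30 promoters (70.0%). It was present in 3.77% of 27457 rat promoters, 1 annotated start per gene, and in 2.81% of the 8225 promoters of genes tested here. The matches are written below 5′ to 3′ in the direction of transcription with the ISRE core in capitals, read as TTTC, any 2 bases and TTTC where it lies on the other strand. They are those of some of the members with large differences under PDGF or JQ1, and that of Rsad2, which was lower with JQ1 at 2 h and higher at 24 h.
Oas1b, chr12:41395892-41395921, minus strand: cccttcccggGAAATGGAAActgaaaaccc
Ifih1, chr3:67684008-67684037, minus strand: gaagagaatcGAAACAGAAAccgatgtgtg
Igtp, chr10:42874934-42874963, plus strand: tccaggaaccGAAACTGAAAgcagttctgg
Irf7, chr1:205800073-205800102, minus strand: acagtttaggTTTCATTTTCccgagacgca
Tap1, chr20:4668645-4668674, minus strand: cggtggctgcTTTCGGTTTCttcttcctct
Gbp2, chr2:234005686-234005715, plus strand: agttttttagTTTCACTTTCattgtcttaa
Oasl2, chr12:47383317-47383346, minus strand: aaagctttggTTTCAGTTTCcaggcttgag
Parp14, chr11:78408048-78408077, plus strand: tccaggaaatGAAAGTGAAAgaagtaagtt
Psmb8, chr20:4657016-4657045, minus strand: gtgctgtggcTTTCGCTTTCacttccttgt
Rsad2, chr6:48788248-48788277, minus strand: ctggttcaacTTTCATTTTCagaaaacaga

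The GAS motif TTCNNNGAA, which reads the same on both strands, was present in 8 of the 30 member promoters (26.7%), against 8.68% of all promoters and 6.53% of those of tested genes. Irf1 and Irf9, members without the ISRE core in this window, both held one. In Igtp and Parp14 the GAS motif lay a few bases upstream of the ISRE core, and in Bst2 the motifs overlapped. The matches of Irf1, Irf9 and Igtp are written with the GAS motif in capitals, the last with the start of the ISRE core shown above still visible in lower case.
Irf1, chr10:38417783-38417811, plus strand: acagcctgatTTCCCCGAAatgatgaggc
Irf9, chr15:33065727-33065755, plus strand: accacgtgatTTCTAGGAActgcacctcc
Igtp, chr10:42874923-42874951, plus strand: aaccagtcacTTCCAGGAAccgaaactga

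A narrow form of the NF-kappaB motif, GGGA followed by any 2 bases and TTCC, was searched on both strands. It was present in 2 of the 30 promoters, those of Gbp5 and Tap1 (6.67%, against 1.29% of all promoters). Looser forms were not searched, so the other promoters are not shown to lack an NF-kappaB motif. The promoters of Oas1a and Oas1b, neighbours that arose by duplication, were identical at 83.6% of 281 aligned bases, and each held a pair of overlapping ISRE cores and a GAS motif upstream of them. Psmb9 and Tap1 are transcribed away from each other, and their promoter windows share 44 bases. Irf1, Irf9, Stat2, Oasl, Mx1, Cmpk2, Ifi35, Trim25 and Psmb9 had no ISRE core in the window. A match is a description of letters and not a measured binding site.

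**Figure D1:**
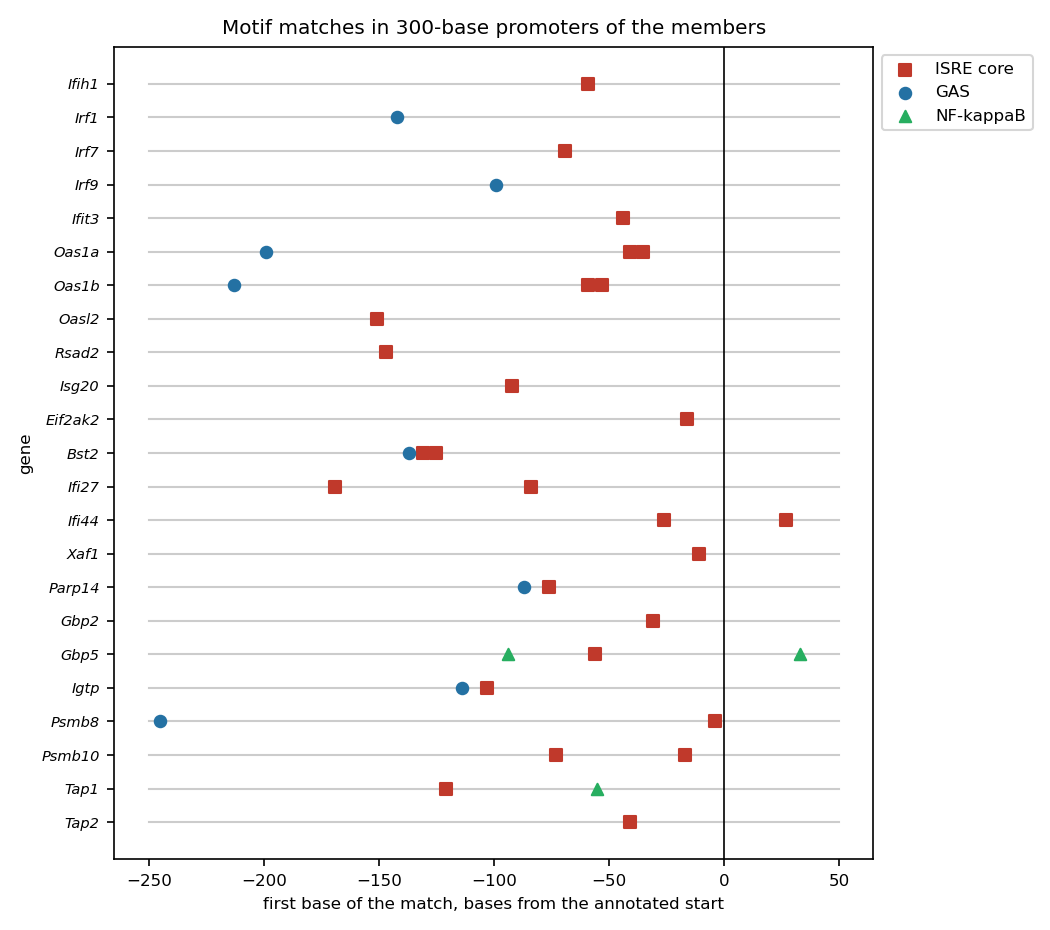
Place of each motif match in the promoter windows of the 23 members with at least 1 match; the x axis is the first base of the match in bases from the annotated start, and each row is a gene. The 27 ISRE core matches (squares) begin between -169 and 27, the 8 GAS matches are circles and the NF-kappaB matches triangles.

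Levels are given as the authors' normalised FPKM (a measure of RNA abundance per unit of transcript length, adjusted by them in a way that brings added spike-in RNAs closer between libraries, here called the spike-in scale), library by library in the order of the deposited columns, numbered 0 to 2. An unnormalised value of 0 is not 0 on this scale, where such genes lie between 0.0577 and 0.255, highest in PDGF 2 h library 1 and PDGF 24 h library 0. Among the tested members this holds for 1 to 5 libraries of Ifit1, Ifit3, Oasl, Mx2, Rsad2 and Ifi44, whose values there are a floor and not a measured level. Differences are of log2(normalised FPKM + 1) with their standard error from 1 limma model over the 14 libraries, and a gene passed where its Benjamini-Hochberg adjusted p over 10133 tested genes was under 0.05. The pseudocount makes the difference of a low gene smaller than its ratio. Because the median of all genes moves on this scale, by 0.41 at PDGF 24 h and by -0.48 with JQ1 at 24 h on the log2 scale, calls are also given on a median-centred scale, on which the median gene stays near 0.

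Of the 36 members, 34 passed the filter on low values, a normalised FPKM reaching 1 in 2 or more libraries, and were tested. Oas1a and Mx1 did not pass it. Ifit3 and Cmpk2 passed only through PDGF 2 h library 1 (8.16 and 4.17) and PDGF 24 h library 0 (2.62 and 1.73). Ifit1, Mx2 and Ifi44 passed only through libraries given PDGF without JQ1, where they were highest. For these members the filter was thus not independent of the comparisons. Oas1a, a synthetase of 2-5A, the second messenger of RNA decay, had unnormalised FPKM of 1.21, 0.0897 and 0.494 at PDGF 2 h and was listed at 0 in every other library but 1 JQ1 plus PDGF 24 h library, at 0.0586. Mx1, an antiviral GTPase, was at or below 0.186 unnormalised FPKM in all 14 libraries.

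The libraries had between 9901 and 11503 genes above 0, and sequencing depth is unknown. PDGF 2 h library 1 had the fewest, and low values stand higher in it and in PDGF 24 h library 0 than in their replicates. Counts are therefore also given without these 2 libraries, a repeat chosen after seeing the data. Among markers, the unnormalised FPKM of 5 smooth muscle genes (Acta2, Tagln, Cnn1, Myh11 and Myocd) were summed, a total mostly of Acta2 and Tagln. The sum was 9916 to 10314 in unstimulated cells, 10768 to 11409 at PDGF 2 h and 16588 to 16903 with JQ1 at 2 h. It was 1225 to 1467 at PDGF 24 h and 359 to 428 with JQ1 at 24 h. On the spike-in scale the markers differed among themselves with JQ1 at 2 h. Tagln was higher (0.48 ± 0.15), Acta2 (0.05 ± 0.16) and Cnn1 (-0.38 ± 0.17) did not pass, and Myh11 (-0.69 ± 0.23) and Myocd (-1.73 ± 0.27) were lower. The sum over 6 leukocyte markers was 13.8 to 17.6, 17.7 to 22.6, 6.46 to 11.2, 36.9 to 52.9 and 9.53 to 17.1 in the same order of groups. Of the 6, 3 or 4 were at 0 in every library of each group, and the sum was mostly Cd14 and Cd68. With JQ1 at 24 h Cd14 was lower (-3.49 ± 0.21) and Cd68 higher (2.33 ± 0.40) on the spike-in scale. The 5 endothelial markers summed to 45.4 to 46.7, 42.4 to 55.2, 21.2 to 22.8, 92.4 to 105 and 20.4 to 24.9, nearly all of it Eng. Of these markers 2 or 3 were at 0 in every library of each group. The 5 measured adventitial fibroblast markers summed to 125 to 130 in unstimulated cells, 90.2 to 115 over the next 3 groups and 6.10 to 8.44 with JQ1 at 24 h. The sum was mostly Lum, and 1 or 2 markers were at 0 in every library of each group. On the spike-in scale Lum did not pass at PDGF 2 h (-0.10 ± 0.14) or 24 h (-0.02 ± 0.14). Pdgfra was lower at PDGF 2 h (-0.93 ± 0.23) and higher at PDGF 24 h (1.26 ± 0.23). Both were lower with JQ1 at 2 h (-0.45 ± 0.12 and -1.63 ± 0.20). The part of these markers in the results below was not tested, and in bulk RNA fewer cells of a type and less RNA per cell cannot be told apart.

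After 2 h of PDGF, 27 of the 34 tested members stood higher than in unstimulated cells and 0 lower. Of all tested genes 30.4% passed, 17.7% higher and 12.7% lower. The members' median difference was 1.35, against 0.01 for all genes, and the largest were Usp18 at 4.30 ± 0.28, Oas1b at 3.96 ± 0.34 and Irf7 at 3.80 ± 0.24. At 24 h of PDGF 18 stood higher than unstimulated and 0 lower, where 42.6% of all genes passed, 37.7% higher and 4.85% lower, and the median was 0.77 against 0.41. Between the PDGF times 20 members were lower at 24 h and 2 higher, where 56.3% of all genes passed, 11.8% lower and 44.5% higher, and the median was -0.79 against 0.39. These comparisons share their PDGF and unstimulated libraries, and those with JQ1 share the PDGF libraries with them.

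With JQ1, 29 members were lower than with PDGF alone at 2 h and 0 higher. Of all tested genes 41.3% passed, 34% lower and 7.24% higher. The members' median difference was -1.27 against -0.29 for all genes. At 24 h, 25 were lower and 2, Oasl and Rsad2, were higher, where 53.1% of all genes passed, 48.5% lower and 4.61% higher, and the median was -1.10 against -0.48. The JQ1 libraries carry their own title letters (E to H, against A to D without JQ1), so anything else that differed between those sets cannot be told apart from JQ1.

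On the median-centred scale, with 33 members tested, the counts higher and lower were 27 and 0 at PDGF 2 h, where 39.8% of all genes passed, 20.4% and 19.4% by direction. They were 9 and 1 at PDGF 24 h (28.2% of all genes, 14.8% and 13.4%) and 0 and 24 between the PDGF times (52.5%, as 26.6% and 25.8%). With JQ1 they were 0 and 25 at 2 h (41.5%, as 20.1% and 21.5%) and 2 and 20 at 24 h (48.9%, as 23.1% and 25.8%). Without PDGF 2 h library 1 and PDGF 24 h library 0, the spike-in scale gave 27 and 0 at PDGF 2 h (16.2% and 15.3% of all genes), 19 and 0 at PDGF 24 h (34.8% and 5.28%) and 1 and 17 between the PDGF times (41.1% and 10.1%). With JQ1 it gave 0 and 25 at 2 h (7.36% and 30.6%) and 1 and 25 at 24 h (4.65% and 46.3%). At PDGF 24 h the members called numbered 18 on one scale and 10 on the other.

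**Figure D2:**
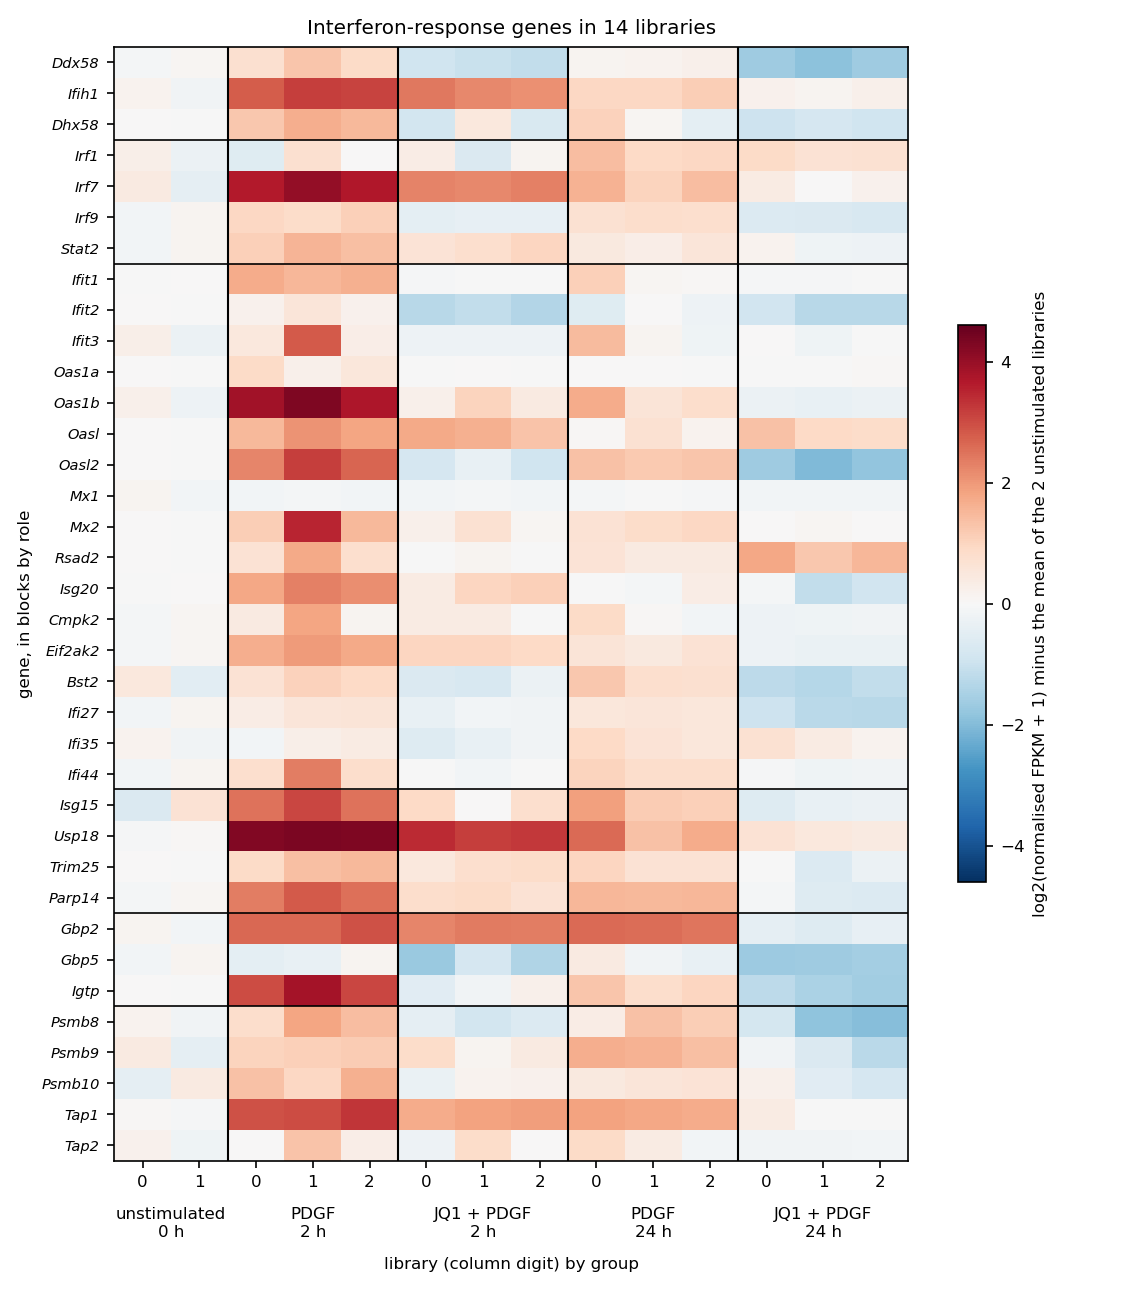
Colour gives log2(normalised FPKM + 1) of each of the 36 members with a row (y axis, in blocks by role) in each of the 14 libraries (x axis) minus the mean of the 2 unstimulated libraries. PDGF 2 h is the group with most red; of its 3 libraries, library 1 has the darkest red for Ifit3, Mx2 and Ifi44.

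**Figure D3:**
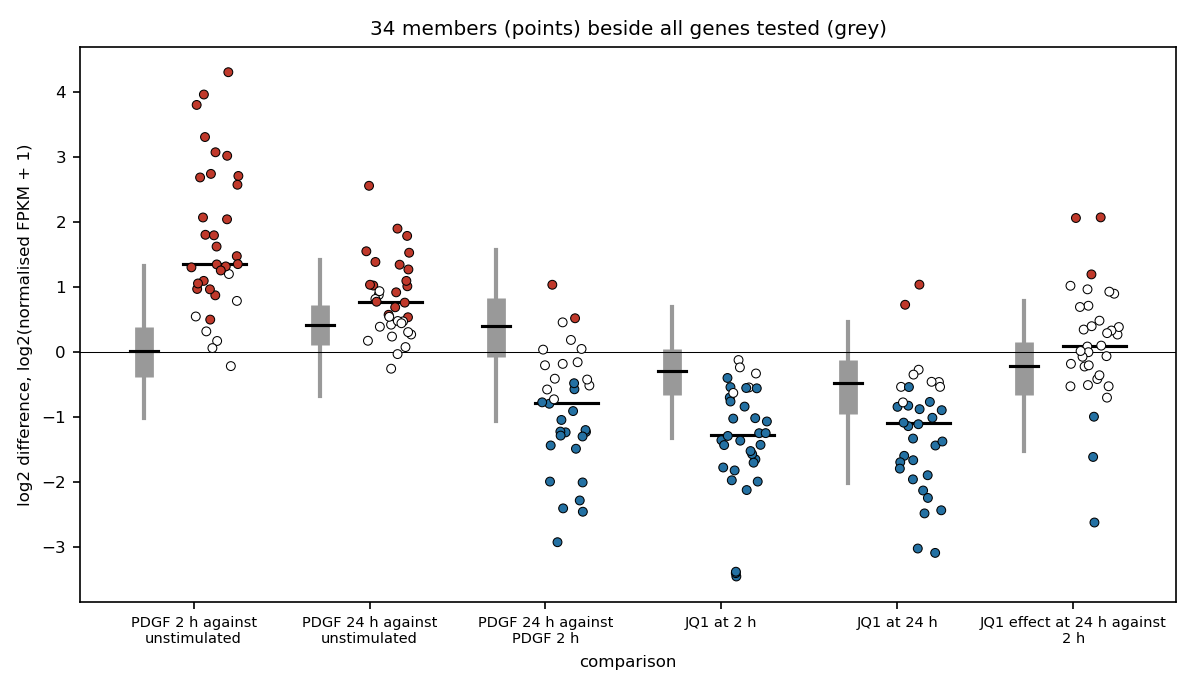
Log2 differences of the 34 tested members (points; red higher, blue lower, white not past the threshold; line at their median) in each of 6 comparisons, beside all 10133 genes tested (grey, 5th to 95th percentile, thick from 25th to 75th, black line at the median). The members' medians are 1.35 at PDGF 2 h and -1.27 with JQ1 at 2 h, against 0.01 and -0.29 for all genes.

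The RNA sensors were all higher at PDGF 2 h (17.7% of all genes) and all lower with JQ1 at 2 h (34%) and 24 h (48.5%). Ddx58 (RIG-I), which recognises RNA ends bearing a triphosphate, measured 5.52 and 6.54 normalised FPKM in the unstimulated libraries, 10.7, 15.97 and 12.002 at PDGF 2 h and 6.57, 6.87 and 7.29 at PDGF 24 h. With JQ1 it measured 2.73, 2.42 and 2.21 at 2 h and 1.23, 0.877 and 1.28 at 24 h. Every JQ1 library lay below both unstimulated libraries, and the log2 difference from PDGF alone was -1.99 ± 0.19 at 2 h and -1.90 ± 0.19 at 24 h.

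Ifih1 (MDA5), the sensor of long double-stranded RNA, rose from 3.47 and 2.56 unstimulated to 26.2, 35.5 and 33.1 at PDGF 2 h, and was at 6.73, 6.72 and 7.71 at PDGF 24 h. JQ1 libraries held 20.6, 17.6 and 16.2 at 2 h and 3.57, 3.35 and 3.69 at 24 h. Unlike Ddx58, Ifih1 stayed above the unstimulated range with JQ1 at 2 h, at 57.5% of its PDGF mean. Its difference with JQ1 was -0.76 ± 0.17 at 2 h and -0.83 ± 0.17 at 24 h, the latter not past the threshold on the median-centred scale (-0.34).

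Dhx58 (LGP2), a regulator of the other sensors, was at 1.21 and 1.17 unstimulated, 4.21, 5.92 and 5.23 at PDGF 2 h, 0.213, 2.09 and 0.355 with JQ1 at 2 h, 3.56, 1.33 and 0.616 at PDGF 24 h and 0.138, 0.277 and 0.171 with JQ1 at 24 h. Its replicates spread widely in the JQ1 2 h and PDGF 24 h groups. Its call with JQ1 at 24 h (-1.11 ± 0.37) was lost in 5 alternatives, leaving out the 2 libraries named above among them. Its call at PDGF 2 h was lost in 3, a pseudocount of 0.1 among them.

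Among the transcription factors, Irf7, Irf9 and Stat2 were higher at PDGF 2 h and Irf1 was not. Irf7, the factor that amplifies type I interferon responses, measured 3.95 and 1.76 in unstimulated cells, 45.5, 60.6 and 46.8 at PDGF 2 h and 10.2, 6.49 and 8.797 at PDGF 24 h. JQ1 gave 16.97, 16.3 and 17.5 at 2 h and 3.84, 2.73 and 3.25 at 24 h. The JQ1 mean at 2 h was 33.2% of the PDGF mean, and the JQ1 2 h libraries lay above both unstimulated ones, while those at 24 h overlapped them.

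Irf9, the DNA-binding subunit of the ISRE complex, was at 11.4 and 13.5 unstimulated, 24.99, 23.2 and 27.3 at PDGF 2 h and 20.8, 22.3 and 21.95 at PDGF 24 h, and at 8.72, 9.43 and 9.304 and 7.71, 7.44 and 6.95 with JQ1 at 2 h and 24 h. Its groups did not overlap, the JQ1 libraries lay below the unstimulated ones at both times, and the JQ1 differences of -1.36 ± 0.13 and -1.44 ± 0.13 are close in size. Stat2, its partner, measured 13.9 and 17.1, then 33.6, 47.99 and 42.1 at PDGF 2 h and 21.2, 19.5 and 23.3 at PDGF 24 h. With JQ1 it was at 24.5, 27.2 and 31.2 at 2 h and 17.2, 13.2 and 12.9 at 24 h, and its differences of -0.55 ± 0.16 and -0.54 ± 0.16 did not pass on the median-centred scale (-0.24 and -0.04).

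Irf1, a factor known for rapid induction by interferon gamma, had 12.3 and 8.300 unstimulated and 6.46, 17.3 and 10.3 at PDGF 2 h, groups that overlap (0.06 ± 0.33). It stood at 28.4, 19.97 and 20.5 at PDGF 24 h, and at 13.1, 5.94 and 11.2 and 19.4, 16.4 and 17.2 with JQ1 at 2 h and 24 h. It was higher at PDGF 24 h than at 0 h (1.09 ± 0.33) and than at 2 h (1.03 ± 0.30), calls that did not hold on the median-centred scale (0.67 and 0.65), and it passed with JQ1 at neither time (-0.12 ± 0.30 and -0.35 ± 0.30, and 0.17 and 0.16 on the median-centred scale).

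Of the 15 tested antiviral effectors, 11 were higher at PDGF 2 h (17.7% of all genes), 13 lower with JQ1 at 2 h (34%), and 8 lower and 2 higher with JQ1 at 24 h (48.5% and 4.61%). The share lower at 24 h is near that of all genes. Oas1b, a member of the OAS family that in mouse sets resistance to flaviviruses, went from 0.735 and 0.231 to 20.2, 27.7 and 18.3 at PDGF 2 h and was at 3.72, 1.202 and 1.57 at PDGF 24 h. JQ1 libraries held 0.705, 1.99 and 0.954 at 2 h and 0.207, 0.147 and 0.211 at 24 h. The JQ1 mean was 5.51% of the PDGF mean at 2 h and 8.70% at 24 h. The gene was near the floor of the scale in unstimulated cells, so no ratio to that group is given. Reads of 40 bases may be shared between Oas1a and Oas1b, and likewise within the Oasl, Mx, Ifit, Gbp and immunity-related GTPase families, so the split within each pair is uncertain.

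Oasl2, an OAS-like protein with ubiquitin-like domains, measured 4.900 and 4.62 unstimulated, 26.1, 51.7 and 36.2 at PDGF 2 h and 13.5, 12.2 and 12.97 at PDGF 24 h. It was at 2.35, 3.56 and 2.08 and 0.853, 0.419 and 0.642 with JQ1 at 2 h and 24 h. All 6 JQ1 libraries lay below the unstimulated ones, and the differences with JQ1 were -3.38 ± 0.23 and -3.09 ± 0.23.

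Oasl, its paralogue, behaved otherwise. It was at 0.159 and 0.129 unstimulated, 2.19, 3.82 and 3.07 at PDGF 2 h and 2.83, 2.52 and 1.83 with JQ1 at 2 h, where the JQ1 and PDGF libraries overlap (-0.24 ± 0.26). At 24 h PDGF gave 0.190, 0.866 and 0.274, the first of them unnormalised 0, and JQ1 plus PDGF gave 1.900, 1.15 and 1.05. The difference of 0.73 ± 0.26 held on the median-centred scale (1.01). Its call was lost in 4 alternatives that left out libraries. Among them were leaving out PDGF 24 h library 0 alone and together with PDGF 2 h library 1.

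Isg20, a 3′ to 5′ exonuclease that degrades RNA, had 16.8 and 17.5 unstimulated and 61.2, 88.9 and 78.3 at PDGF 2 h, and was back at 17.1, 15.9 and 21.9 at PDGF 24 h. With JQ1 it had 22.6, 35.1 and 37.7 at 2 h and 16.2, 7.32 and 8.91 at 24 h. The PDGF 24 h libraries overlapped the unstimulated range (0.08 ± 0.28), and the difference with JQ1 at 2 h was -1.25 ± 0.25. Bst2 (tetherin), which holds budding virions at the cell surface, measured 15.04 and 7.11, 17.02, 22.6 and 20.4 at PDGF 2 h and 25.7, 18.5 and 18.2 at PDGF 24 h, and 6.12, 5.89 and 8.48 and 3.95, 3.604 and 4.22 with JQ1. Its unstimulated libraries lay far apart, yet every library with JQ1 at 24 h was below both of them, and the differences with JQ1 were -1.43 ± 0.23 and -2.13 ± 0.23.

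Rsad2, Ifit1 and Ifi27 are given in full because their JQ1 difference changed between the times, a choice made after their values were seen. Rsad2 (viperin), an enzyme that makes a chain-terminating nucleotide, was at 0.101 and 0.0939 unstimulated, 0.727, 2.63 and 0.886 at PDGF 2 h and 0.0907, 0.193 and 0.0777 with JQ1 at 2 h. At 24 h it was at 0.682, 0.450 and 0.459 with PDGF and 2.76, 1.56 and 2.18 with JQ1. The gene was under 3 normalised FPKM in all 14 libraries, with an unnormalised 0 in both unstimulated libraries and 1 with JQ1 at 2 h. All 3 JQ1 libraries at 2 h were below the PDGF ones and all 3 at 24 h above them, with differences of -1.03 ± 0.28 and 1.04 ± 0.28. Cmpk2, the nucleotide kinase whose gene lies beside Rsad2, did not pass in any of the 6 comparisons, and its PDGF 2 h libraries were 0.973, 4.17 and 0.618.

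Ifit1, which binds RNA lacking a host cap, was near the floor except at PDGF 2 h, at 2.67, 2.27 and 2.46, and in PDGF 24 h library 0, at 1.42, against 0.198 and 0.177 in its replicates. The PDGF 2 h values of Ifit1 lay further apart in unnormalised FPKM, at 3.23, 0.994 and 2.39. Ifi27, a mitochondrial protein and the most abundant member, measured 239 and 283 unstimulated, 329, 384 and 394 at PDGF 2 h, 373, 386 and 373 at PDGF 24 h, and 205, 241 and 235 and 133, 110.1 and 106 with JQ1. Its libraries with JQ1 at 2 h overlapped the unstimulated range, and those at 24 h were below both unstimulated values, at 44.5% of their mean.

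Of the other effectors, Eif2ak2 (PKR), the kinase that stops translation, was higher at both PDGF times, at 24 h not on the median-centred scale (0.15), and lower with JQ1 at both, with differences of -0.84 ± 0.12 and -0.84 ± 0.12. Mx2, a dynamin-like GTPase, held 1.39, 11.6 and 2.05 at PDGF 2 h, a group in which library 1 was far above the others, and at 24 h it passed neither against 0 h nor with JQ1. Ifit3 and Ifi44 had the same library highest at PDGF 2 h, at 8.16 and 5.23, against at most 0.842 and 1.15 in its replicates. The gap was smaller in unnormalised FPKM, at 0.959, 3.89 and 0.510 for Ifit3 and 1.26, 2.49 and 1.09 for Ifi44. Ifit3 was called lower with JQ1 at 2 h, a call lost in 7 alternatives, leaving out PDGF 2 h library 1 among them. Ifit2 did not pass at PDGF 2 h (0.32 ± 0.24) and was lower with JQ1 at both times (-1.57 ± 0.22 and -0.88 ± 0.22, the latter not on the median-centred scale). Ifi35 was higher at PDGF 24 h (0.69 ± 0.21) and lower with JQ1 at 2 h (-0.54 ± 0.19), calls that were absent on the median-centred scale.

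**Figure D4:**
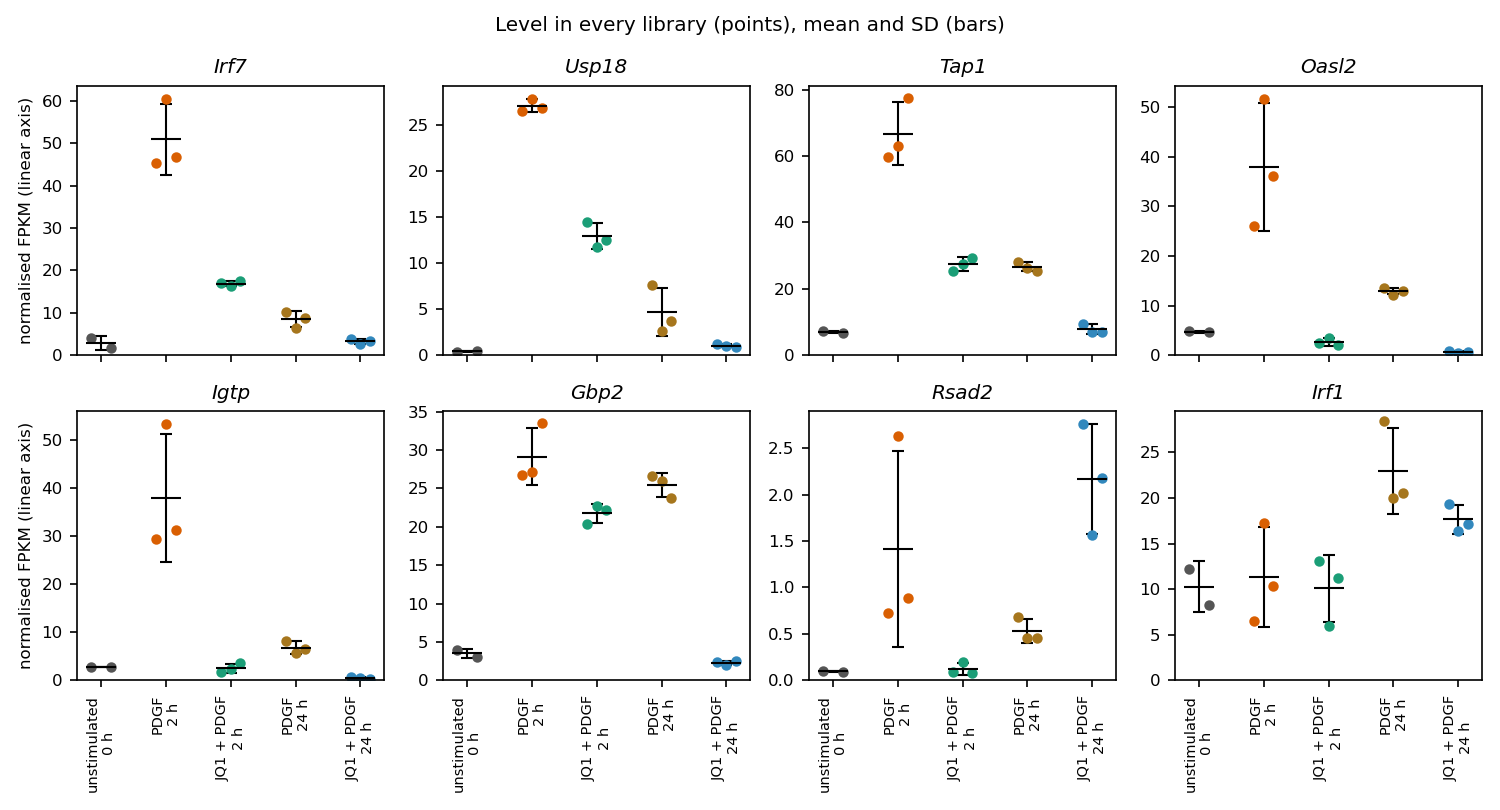
Normalised FPKM (y axis, linear, from 0) of 8 members in every library (points) with the mean and SD of each group (bars). Irf7, Usp18, Tap1, Oasl2 and Igtp are highest at PDGF 2 h; Gbp2 at PDGF 24 h (23.7 to 26.6) lies just under its range at 2 h (26.8 to 33.5); Rsad2 is at 1.56 to 2.76 with JQ1 at 24 h; Irf1 overlaps between unstimulated cells and PDGF 2 h.

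On the spike-in scale Isg15, Usp18, Trim25 and Parp14 were higher at both PDGF times and lower at PDGF 24 h than at 2 h. All 4 were lower with JQ1 at both times. Of all genes 17.7% and 37.7% were higher at PDGF 2 h and 24 h, and 11.8% were lower at PDGF 24 h than at 2 h. With JQ1, 34% and 48.5% of all genes were lower at 2 h and 24 h. On the median-centred scale Isg15 (1.003) and Trim25 (0.35) did not pass at PDGF 24 h against 0 h, and Trim25 between the PDGF times (-0.48 ± 0.19) lost its call in 8 other repeats. Isg15, the ubiquitin-like protein attached to many targets, was at 1.49 and 5.29 unstimulated, 21.3, 31.99 and 21.4 at PDGF 2 h and 13.8, 7.898 and 7.39 at PDGF 24 h. With JQ1 it was at 6.39, 3.01 and 5.695 and 1.602, 2.12 and 2.25. The unstimulated libraries were far apart, and the libraries with JQ1 at 24 h fell between them.

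Usp18, the protease that removes ISG15 and also damps the type I receptor, rose from 0.370 and 0.474 to 26.5, 27.8 and 26.9 at PDGF 2 h and was at 7.64, 2.66 and 3.69 at PDGF 24 h. JQ1 left 14.5, 11.7 and 12.5 at 2 h and 1.23, 0.993 and 0.902 at 24 h. At both times the JQ1 libraries stayed above the unstimulated ones, and at 2 h they held 47.6% of the PDGF mean. Parp14, an ADP-ribosyltransferase, measured 4.09 and 4.68, 26.3, 37.1 and 30.5 at PDGF 2 h and 14.6, 14.3 and 14.6 at PDGF 24 h, and 8.501, 9.004 and 7.53 and 4.06, 2.56 and 2.498 with JQ1. Its differences with JQ1 were -1.78 ± 0.18 and -1.96 ± 0.18. Trim25, the ubiquitin ligase that acts on RIG-I, was lower with JQ1 at 2 h (-0.56 ± 0.19) and at 24 h (-1.09 ± 0.19). Its call at 2 h was lost in 7 alternatives, the median-centred scale among them.

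The interferon-inducible GTPases differed among themselves. Igtp (Irgm3), which acts on the vacuoles of intracellular parasites, measured 2.82 and 2.79 unstimulated, 29.4, 53.4 and 31.3 at PDGF 2 h and 1.66, 2.39 and 3.51 with JQ1 at 2 h. At 24 h it measured 8.26, 5.68 and 6.46 with PDGF and 0.667, 0.394 and 0.254 with JQ1. The JQ1 mean was 6.62% of the PDGF mean at 2 h and 6.45% at 24 h.

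Gbp2, a guanylate-binding protein, rose from 3.94 and 3.08 to 26.8, 27.2 and 33.5 at PDGF 2 h and stayed at 26.6, 25.996 and 23.7 at PDGF 24 h, a difference between the times of -0.18 ± 0.15 that did not pass, although it did on the median-centred scale (-0.57). With JQ1 it was at 20.4, 22.7 and 22.2 at 2 h and 2.37, 1.95 and 2.45 at 24 h. At 2 h the JQ1 libraries kept 74.6% of the PDGF mean (-0.40 ± 0.15, not passed on the median-centred scale at -0.08), and at 24 h 8.87% (-3.02 ± 0.15). Gbp5 did not pass with PDGF (-0.22 ± 0.32 at 2 h and -0.03 ± 0.32 at 24 h) and was lower with JQ1 at both times (-1.07 ± 0.28 and -1.60 ± 0.28).

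The immunoproteasome and transporter genes prepare peptides for MHC class I, and 4 of the 5 were higher at PDGF 2 h (17.7% of all genes). Of these 4 only Tap1 kept its call under every alternative. The calls of Psmb8, Psmb9 and Psmb10 were each lost where 1 of the unstimulated libraries was left out. Tap1, a subunit of the peptide transporter, measured 7.29 and 6.74, 59.8, 62.96 and 77.6 at PDGF 2 h and 28.2, 26.3 and 25.5 at PDGF 24 h. With JQ1 it was at 25.2, 27.6 and 29.4 and 9.503, 6.92 and 6.93. The JQ1 libraries at 2 h lay above the unstimulated ones, at 41.03% of the PDGF mean, and those at 24 h overlapped them.

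Psmb9, the immunoproteasome subunit encoded beside Tap1, went from 11.7 and 6.15 to 18.6, 19.2 and 20.3 at PDGF 2 h and 29.1, 27.6 and 24.1 at PDGF 24 h, and was at 16.1, 9.41 and 11.7 and 7.42, 4.98 and 3.04 with JQ1. Its JQ1 difference did not pass at 2 h (-0.63 ± 0.26) and was -2.25 ± 0.26 at 24 h. Psmb8, another inducible catalytic subunit, was at 5.36 and 4.098, 8.99, 19.2 and 14.1 at PDGF 2 h, 3.32, 2.15 and 2.68 with JQ1 at 2 h, 6.28, 13.3 and 11.4 at PDGF 24 h and 2.25, 0.560 and 0.455 with JQ1 at 24 h. All its JQ1 libraries lay below the unstimulated range on the spike-in scale, but on the median-centred scale only those at 24 h did. Its differences with JQ1 were -1.97 ± 0.34 and -2.48 ± 0.34. Psmb10 was lower with JQ1 at both times, at 24 h not on the median-centred scale (-0.39), and Tap2, at most 2.37 in any library, passed in no comparison.

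At PDGF 2 h the libraries of 30 of the 34 members lay wholly above the unstimulated range (26.4% of all genes), and at PDGF 24 h those of 27 (61.1%). The JQ1 groups, set against the same range, show where the members ended. With JQ1 at 2 h the range of 12 of the 34 lay wholly above the unstimulated range (20.6% of all genes did) and 7 wholly below (47.2%). With JQ1 at 24 h, 4 lay above (28.7% of all genes), namely Irf1, Oasl, Rsad2 and Usp18, and 17 below (36.2%). On the median-centred scale, of 33 members, 14 lay above (32.2% of all genes) and 5 below (35%) at 2 h, and 6 above (36.5%) and 15 below (36%) at 24 h.

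The JQ1 differences at 2 h and 24 h, which share no library, differed from each other for 6 of the 34 members, 3 in each direction, where 22.3% of all genes passed in this comparison of differences, 4.82% higher and 17.5% lower. The difference with JQ1 was more negative at 24 h for Gbp2 (-2.62 ± 0.21), Psmb9 (-1.62 ± 0.37) and Ifi27 (-0.996 ± 0.16). It was less negative or positive at 24 h for Rsad2 (2.06 ± 0.40), Oas1b (2.07 ± 0.43) and Ifit1 (1.19 ± 0.39), the last lost in 13 of the repeats with other settings. Oas1b lost its call at a pseudocount of 0.1. Its JQ1 mean was 5.51% of the PDGF mean at 2 h and 8.70% at 24 h, so the ratios differ little. On the median-centred scale 6 members were higher and 3 lower, where 29.9% of all genes passed, 13.5% higher and 16.4% lower.

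**Figure D5:**
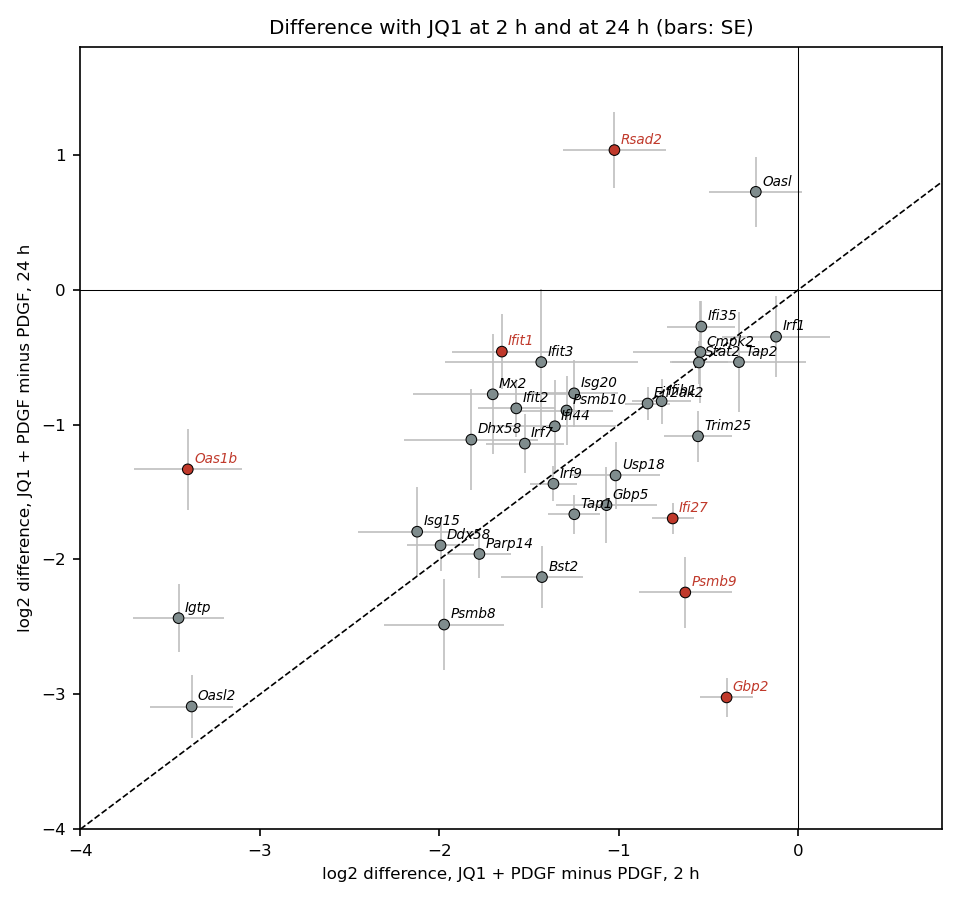
Log2 difference of JQ1 plus PDGF from PDGF alone at 2 h (x axis) and at 24 h (y axis) for the 34 tested members, with standard errors; the dashed line marks equal differences. The 6 members in red are those whose differences at the 2 times differed past the threshold, Gbp2, Psmb9 and Ifi27 below the line and Rsad2, Oas1b and Ifit1 above it.

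Members with the ISRE core in the promoter window and those without are set side by side as a description. At PDGF 2 h the 19 tested members with the core had a median difference of 1.803 (16 higher) and the 8 without it 1.03 (5 higher). With JQ1 at 2 h the medians were -1.29 (18 lower) and -0.55 (4 lower), and with JQ1 at 24 h -1.33 (16 lower, 1 higher) and -0.50 (4 lower, 1 higher). Of all genes 17.7% were higher at PDGF 2 h, and 34% and 48.5% lower with JQ1 at 2 h and 24 h, the last near the share of the members without the core. The ranges of the sets overlapped in each comparison, and the members had been picked for these values.

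Across the 14 libraries the members followed each other to different degrees. The correlation of a member with the mean profile of the others, each standardised, was highest for Parp14 (Pearson r = 0.978), Igtp (0.971) and Oasl2 (0.954), and lowest for Oasl (0.355), Ifi35 (0.135), Rsad2 (0.055) and Irf1 (-0.050). These are descriptions over libraries that fall into 5 groups. Among the tested genes outside the set, those named by the rule for a profile like the members' mean were Slc30a5, Il1rap, Cdc42se1, Prss22, Nus1, Kdm5b, Mitd1, Hspb7 and Trib2, with r from 0.970 to 0.952. None of these was on the lists of interferon pathway genes used here.

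Other genes of the pathway, 92 symbols of which 76 had a row and 58 were tested, showed what surrounds the members. The interferons Ifnb1, Ifna1, Ifna2, Ifna4, Ifnk and Ifng were listed at 0 in all 14 libraries on the unnormalised scale, which with unknown depth sets no upper limit. Of the 58 tested genes 30 were higher and 4 lower at PDGF 2 h (17.7% and 12.7% of all genes), 33 and 1 at PDGF 24 h (37.7% and 4.85%), and 17 and 19 at PDGF 24 h against 2 h (44.5% and 11.8%). With JQ1, 3 were higher and 34 lower at 2 h (7.24% and 34%), and 3 and 37 at 24 h (4.61% and 48.5%). On the median-centred scale, with 57 tested, the JQ1 counts were 8 and 25 at 2 h (20.1% and 21.5%) and 10 and 24 at 24 h (23.1% and 25.8%), and those at PDGF 24 h were 18 and 4 (14.8% and 13.4%). The list was written with earlier results of these data known.

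Of 8 tested receptors and signalling kinases, 2 were higher and 1 lower at PDGF 2 h, near the 17.7% and 12.7% of all genes. Jak2, a kinase of the gamma receptor, was higher at PDGF 2 h (1.23 ± 0.22), Tyk2 of the type I receptor lower (-0.81 ± 0.28), and Ifnar1 did not pass (-0.54 ± 0.20). They are named here after their values were seen.

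The strongest of the other induced genes at PDGF 2 h was Cxcl10, a chemokine of T cells, at 0.299 and 0.409 unstimulated, 40.1, 30.9 and 32.96 at PDGF 2 h, 14.3, 11.03 and 9.61 with JQ1 at 2 h, 7.72, 0.995 and 2.31 at PDGF 24 h and 5.42, 8.63 and 7.77 with JQ1 at 24 h. Its difference with JQ1 was -1.51 ± 0.37 at 2 h (limma adjusted p = 0.00471) and 1.08 ± 0.37 at 24 h (limma adjusted p = 0.0241), where the ranges overlap. Ifi47, an immunity-related GTPase, was at 0.221 and 0.861, 21.7, 39.2 and 26.02 at PDGF 2 h, 4.07, 3.91 and 3.303 with JQ1 at 2 h and at most 1.42 at 24 h. Irgm, of the same family as Igtp, differed with JQ1 by -2.87 ± 0.20 at 2 h and -2.29 ± 0.20 at 24 h. The other pathway genes with the largest differences at PDGF 2 h were Slfn2 (3.04 ± 0.17), Irf8 (2.81 ± 0.33) and Socs3, and at PDGF 24 h Slfn2 (2.11 ± 0.17), Ifitm3 (1.96 ± 0.15), Irf5 (1.87 ± 0.31) and Ifitm1 (1.78 ± 0.50). Between the PDGF times Ifi47 (-3.87 ± 0.27), Cxcl10 (-3.20 ± 0.37) and Irgm (-1.67 ± 0.20) were lower at 24 h and Tlr3 (1.84 ± 0.24) and Ikbke (1.68 ± 0.20) higher. With JQ1 at 2 h Rtp4 (-1.95 ± 0.35), Ciita (-1.82 ± 0.32) and Tlr3 (-1.69 ± 0.24) were lower as well.

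Socs1 and Socs3, feedback inhibitors that block JAK kinases, were higher at PDGF 2 h (1.503 ± 0.36 and 2.80 ± 0.25). With JQ1 at 2 h Socs1 was higher than with PDGF alone (1.65 ± 0.32, limma adjusted p = 0.000782) and Socs3 did not pass (0.43 ± 0.23), though it did, higher, on the median-centred scale (0.75). At 24 h Socs1 did not pass (0.09 ± 0.32), and Socs3 was lower (-0.73 ± 0.23), a call lost on the median-centred scale (-0.23). Socs1 and Socs3 both differed in the comparison of JQ1 differences (-1.57 ± 0.45 and -1.17 ± 0.32).

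At 24 h the largest differences with JQ1 among the pathway genes were in Ifitm3, an inhibitor of viral entry, at 1479, 1097 and 1150.0 with PDGF and 109, 96.5 and 85.5 with JQ1 (-3.66 ± 0.14, limma adjusted p = 1.58e-11). Lgals3bp, a secreted glycoprotein, differed by -3.34 ± 0.12 and Tlr3, the endosomal sensor of double-stranded RNA, by -3.23 ± 0.24, and Nmi, which binds STAT factors, by -2.46 ± 0.53. B2m and RT1-A2 are added after their values were seen. The class I light chain B2m was at 506 to 588 with JQ1 at 24 h and 643 to 699 with PDGF (-0.32 ± 0.11, and 0.19, not past the threshold, on the median-centred scale), and RT1-A2, a class I heavy chain gene in a family whose reads may be shared, was higher with JQ1 at 24 h (0.47 ± 0.13).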

How the data were processed

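RNA-seq of 14 libraries of cultured rat aortic smooth muscle cells was analysed from gene-level values. Single-end reads of stranded, polyA-selected libraries with ERCC spike-in RNA were processed with HISAT and Cufflinks 2.0.0 against rn6, per the submitters' processing notes; whether counting used strand is not stated. The deposited tables hold FPKM before and after the authors' normalisation; its method is not stated. Over 37 spike-ins above 0 in every library, the median SD of log2 values between libraries was 0.405 before and 0.277 after it. FPKM carries no read counts, so depth is unknown.

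Deposited columns were tied to groups by name, and 0 columns of per-sample values were left unused. Computed here were log2(normalised FPKM + 1) and 1 limma model (limma 3.58.1, R 4.3.3) over the 5 groups with a mean trend. Genes needed a normalised FPKM of at least 1 in 2 libraries, and p-values were Benjamini-Hochberg adjusted over all genes tested, with calls at an adjusted p under 0.05. The fit was tested on simulated data.

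Alternatives were a median-centred scale from unnormalised FPKM, pseudocounts of 0.1 and 0.5, other filters, no trend, only the groups compared, and leaving out each library. The members and gene lists were chosen with earlier results of these data known. Values in every library are given for up to 8 members called with the largest difference in each of the first 5 comparisons and for Irf1, Irf7, Irf9, Stat2, Isg15 and Ddx58, and up to 5 other pathway genes are named per comparison. Promoters came from RefSeq GRCr8, and no coordinates were converted. Results for some genes are not reported here.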

Additional observations from a re-analysis of the deposited data

Results flagged for a closer look

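The difference between JQ1 plus PDGF and PDGF alone was not the same at 24 h as at 2 h for 6 of the 34 tested members, by the limma test of the difference between the 2 times. Of all tested genes 22.3% passed this test, 4.82% higher and 17.5% lower, so the count is not read as particular to the members. The change in the log2 difference was -2.62 for Gbp2, -1.62 for Psmb9 and -0.996 for Ifi27, each lower with JQ1 by more at 24 h. It was 2.06 for Rsad2, 2.07 for Oas1b and 1.19 for Ifit1, which were lower with JQ1 by more at 2 h or, for Rsad2, higher at 24 h. Gbp2, Psmb9, Ifi27 and Rsad2 kept their calls under every alternative tried. Oas1b lost its call in 1, at a pseudocount of 0.1 (adjusted p = 0.182), and Ifit1 in 13, with a highest adjusted p of 0.0997. Rsad2 and Ifit1 were under 3 normalised FPKM in all 14 libraries.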

How the results depend on the processing

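Of 2968 recomputed values for single members, 2783 kept their direction and their side of the threshold, 147 no longer passed, 37 newly passed and 1 turned, that of Ifi27 at PDGF 24 h against 2 h (0.04, and -0.35 on the median-centred scale). On that scale PDGF 24 h against unstimulated cells gave 2819 genes and 10 members called and a member median of 0.40, and the medians were -1.17 for PDGF 24 h against 2 h and -0.76 with JQ1 at 24 h. A pseudocount of 0.1 gave medians of 2.06 at PDGF 2 h and -1.62 with JQ1 at 24 h. Fitting only the groups compared gave 1537 genes called at PDGF 2 h. Leaving out 1 library gave 1601 to 3154 genes called at PDGF 2 h and 2489 to 3909 at PDGF 24 h, the lowest of each without unstimulated library 0; at PDGF 2 h it was 1953 without unstimulated library 1. The calls kept under every alternative were 18 of 27 members at PDGF 2 h, 8 of 18 at PDGF 24 h, 15 of 22 between the PDGF times, 24 of 29 and 19 of 27 with JQ1 at 2 h and 24 h, and 4 of 6 between the JQ1 differences. The cause of these changes was not tested.

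No paired analysis was possible because the deposited columns carry digits and not the letters of the sample titles, so no column can be tied to a lettered replicate. With 2 unstimulated libraries, leaving 1 out assumes that the other varies like the remaining groups. Read depth is unknown, so no limit can be set on genes listed at 0, and low members are the least certain: Ifit1, Mx1, Oas1a, Rsad2 and Tap2 were under 3 normalised FPKM in all 14 libraries, Cmpk2, Ifi44, Ifit3 and Mx2 in 13, Gbp5 and Oasl in 12, and Dhx58 and Oas1b in 10.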
